A study of Homo sapiens with 9 samples.

Results

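The 9 lysine acetyltransferase genes EP300, CREBBP, KAT2A, KAT2B, KAT5, KAT6A, KAT6B, KAT7 and KAT8 were followed by symbol across 9 RNA-seq libraries of Kasumi-1, 9 of the 59648 genes counted. Kasumi-1 is a human acute myeloid leukaemia cell line with the t(8;21) translocation, whose AML1-ETO fusion (AE, also RUNX1-RUNX1T1) joins the DNA-binding part of RUNX1 to the corepressor RUNX1T1. The study asked what changes when the fusion or LYL1, a basic helix-loop-helix transcription factor of blood cells, is knocked down. The groups were shAE (shRNA against AE, replicates 1, 2 and 3), shLYL1 (shRNAs 538, 540 and 542 against LYL1) and shControl (a control shRNA, replicates 1, 2 and 3), each with 3 libraries. All of them were infected with lentivirus for 48 h, kept in 1 µg/mL puromycin for a further 48 h and harvested on day 4, so the control cells carry a vector and the selection too. The labels do not say whether the shAE numbers stand for different shRNAs, nor whether the shAE or the shControl libraries came from separate cultures. The shLYL1 libraries carry different shRNAs, so their spread also holds differences between shRNAs. Every p-value reflects only how far these samples spread, and for shAE and shControl that spread may be technical.

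Lysine acetyltransferases move an acetyl group from acetyl-CoA to lysines of histones and other proteins, and acetylated histones mark active promoters and enhancers. EP300 (p300) and CREBBP (CBP) are paralogous coactivators that many transcription factors recruit. KAT2A (GCN5) and KAT2B (PCAF) are alternative catalytic subunits of the SAGA and ATAC complexes. The MYST family holds KAT5 (TIP60), the enzyme of the NuA4 complex, KAT6A (MOZ) and KAT6B (MORF), which share the BRPF scaffolds, KAT7 (HBO1), which works with BRPF or JADE scaffolds, and KAT8 (MOF), the enzyme of the MSL and NSL complexes. In acute myeloid leukaemia CREBBP, EP300 and KAT6A are known as fusion partners, and p300 is known to bind and acetylate AML1-ETO.

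Promoter windows are shown for 4 genes whose level changed in shAE cells and for KAT2A, the paralog of KAT2B, which did not pass the test. They run 5′ to 3′ on the gene's strand from 250 bases before to 50 after the RefSeq start (GRCh38.p14). Capitals mark E-box letters CAGCTG or CAGGTG and ETS letters GGAAG, read on both strands. The RUNX letters TGTGGT were also searched.
KAT2B (chr3:20040196-20040495, plus strand): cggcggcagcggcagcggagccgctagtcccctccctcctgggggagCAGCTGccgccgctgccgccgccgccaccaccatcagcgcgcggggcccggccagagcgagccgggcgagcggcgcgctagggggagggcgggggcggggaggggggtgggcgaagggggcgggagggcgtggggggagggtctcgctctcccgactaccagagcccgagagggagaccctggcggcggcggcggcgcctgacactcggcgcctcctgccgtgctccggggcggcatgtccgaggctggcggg
KAT2A (chr17:42121318-42121617, minus strand): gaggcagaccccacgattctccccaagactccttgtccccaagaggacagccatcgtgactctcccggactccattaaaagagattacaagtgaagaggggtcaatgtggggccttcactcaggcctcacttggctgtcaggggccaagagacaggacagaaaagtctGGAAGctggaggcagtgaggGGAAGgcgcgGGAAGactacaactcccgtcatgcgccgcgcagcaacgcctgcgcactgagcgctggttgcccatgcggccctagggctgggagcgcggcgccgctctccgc
EP300 (chr22:41092342-41092641, plus strand): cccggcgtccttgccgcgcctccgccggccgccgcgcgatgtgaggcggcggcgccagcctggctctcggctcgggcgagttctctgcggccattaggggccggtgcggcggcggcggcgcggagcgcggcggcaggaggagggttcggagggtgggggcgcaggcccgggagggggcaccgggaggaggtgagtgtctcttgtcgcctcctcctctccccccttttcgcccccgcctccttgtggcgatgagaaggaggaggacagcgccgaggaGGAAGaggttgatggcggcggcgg
KAT6B (chr10:74825005-74825304, plus strand, the most upstream of its 3 windows): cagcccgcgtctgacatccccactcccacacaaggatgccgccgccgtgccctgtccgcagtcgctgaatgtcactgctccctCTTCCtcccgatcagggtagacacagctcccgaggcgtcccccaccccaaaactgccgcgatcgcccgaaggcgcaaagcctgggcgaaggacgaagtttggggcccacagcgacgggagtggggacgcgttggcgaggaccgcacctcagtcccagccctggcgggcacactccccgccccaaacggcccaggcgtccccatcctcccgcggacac
KAT7 (chr17:49788431-49788730, plus strand): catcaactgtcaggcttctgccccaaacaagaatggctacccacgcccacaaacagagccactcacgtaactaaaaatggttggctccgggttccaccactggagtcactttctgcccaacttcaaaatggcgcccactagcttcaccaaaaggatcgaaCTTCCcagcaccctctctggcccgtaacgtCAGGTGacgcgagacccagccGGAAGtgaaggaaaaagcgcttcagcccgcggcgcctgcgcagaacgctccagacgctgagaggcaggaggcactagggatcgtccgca

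Windows of 7 of the 9 members, 10 windows in all, were read, and none of KAT6A or KAT8. KAT6B and CREBBP gave several windows each, some of those of KAT6B overlapping, so the 10 are not separate promoters. The RUNX letters were in 0 of the 10, against 13.1% of 35116 windows of all genes. An E-box lay in the KAT2B window, 203 bases before the start, and in the KAT7 window, 60 bases before it, as well as in windows of KAT5 and CREBBP, while 34.5% of all windows hold one. The ETS letters, present in 71.9% of all windows, occurred 3 times in the KAT2A window and not in that of KAT2B. The windows of EP300 and KAT2B held 40 CpG dinucleotides each and that of KAT2A held 18, against a median of 14 over all windows. These matches describe letters in the windows only.

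Library totals were 20103275 to 28039518 counts, and the lowest count of any member was 116, for KAT2B in shLYL1 542. shAE replicate 3 stood apart, at 110 on the first principal component (54.9% of the variance), against 50.2 and 32.7 for the other shAE libraries, -41.8 to -25.6 for shLYL1 and -33.7 to -32.1 for shControl. On the second component shLYL1 542, the library with the lowest total, was at -45.3, against 2.43 and 6.15 for the other shLYL1 libraries. There shAE replicate 3 was at -27.5, against 18.9 and 28.9 for the other shAE libraries. The biological coefficient of variation was 31.5% in shAE, 20.9% in shLYL1 and 7.57% in shControl libraries. RUNX1T1 was at 114, 136 and 87.7 CPM (counts scaled by library total and TMM factor) in shAE libraries, against 216, 223 and 212 CPM in shControl libraries, and all 3 lay below the controls. LYL1 was at 80.4, 98.4 and 43.9 CPM with shRNAs 538, 540 and 542, against 172, 172 and 143 CPM in shControl libraries, with no overlap, but it did not pass the threshold of 0.05 (edgeR adjusted p = 0.527). Of 6 Kasumi-1 markers all were detected, but not at even levels. The myeloid enzyme MPO was at 16200 to 32500 CPM in shAE, 11400 to 16500 CPM in shLYL1 and 17600 to 20500 CPM in shControl libraries. It was higher in shAE than in shLYL1 libraries (log2 difference 0.93, edgeR adjusted p = 0.0322). KIT was at 1270, 1130 and 434 CPM in shAE libraries, against 1100 to 1160 CPM in shControl libraries. CD38 was at 21.3, 2.36 and 7.22 CPM in shAE libraries, against 2.02 to 2.75 CPM in shControl libraries. The myeloid surface protein CD33 was at 117, 86.0 and 174 CPM in shAE, 75.8, 77.0 and 82.4 CPM in shLYL1 and 33.6, 32.3 and 27.8 CPM in shControl libraries, a log2 fold change of 2.01 for shAE (edgeR adjusted p = 0.00103) and of 1.33 for shLYL1 (adjusted p = 0.142) against shControl. The progenitor marker CD34 ranged from 1.14 to 19.7 CPM in shAE, 9.98 to 53.2 CPM in shLYL1 and 10.5 to 12.5 CPM in shControl libraries. Of 9 markers of T, B and erythroid cells 3 passed the count filter, and the 9 summed to between 4.11 and 17.9 CPM in shAE, 4.92 and 8.60 CPM in shLYL1 and 9.32 and 11.5 CPM in shControl libraries, with MS4A1 and HBA1 at 0 throughout. The B cell marker CD79A was at 3.33, 2.85 and 16.7 CPM in shAE libraries, so replicate 3 sets the top of that range, against 5.87, 5.46 and 5.17 CPM in shControl libraries. The T cell marker CD3D fell to 0.250, 0.493 and 0.625 CPM in shAE libraries, against 3.93, 5.39 and 3.40 CPM in shControl libraries (log2 fold change -3.24, edgeR adjusted p = 0.00405). The part of these marker differences in the levels of the 9 genes was not tested.

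In shControl cells the member with the highest level per length was KAT6B, at 33.2 ± 1.27 CPM per kb of transcript (SD, n = 3), and the lowest was KAT2B, at 2.13 ± 0.201. Between them came KAT6A at 19.7, KAT2A at 18.3, EP300 at 16.1, KAT7 at 14.4, KAT8 at 11.0, KAT5 at 8.77 and CREBBP at 7.54 CPM per kb. Of neighbours in this order KAT6A (19.3 to 20.1) and KAT2A (17.0 to 19.4) overlapped between libraries, and the other neighbours did not. The lengths are those of a single transcript per gene, 8.35 kb for KAT6B, whose annotated exons together cover 32495 bases. Which transcripts were present was not tested, so the place of KAT6B in the order is uncertain. In shAE cells the order differed: KAT2A came first at 19.5 ± 6.95, KAT6B next at 16.8 ± 1.51 and KAT8 after it at 14.9 ± 1.20 CPM per kb, and the ranges of KAT2A and KAT6B overlapped. KAT2B stayed last at 5.66 ± 3.18 CPM per kb, where its range overlapped that of CREBBP (6.37 ± 0.852). Summed over the 9 genes, levels were 663, 647 and 649 CPM in shAE libraries and 831, 863 and 886 CPM in shLYL1 libraries. They were 945, 969 and 911 CPM in shControl libraries, so that the 3 groups did not overlap. The sums of CPM per kb were relatively closer, at 106, 107 and 104 in shAE and 131, 137 and 126 in shControl libraries. In shLYL1 libraries they were 120, 123 and 120. KAT5 shares 38.6% of its exonic bases with RNASEH2C on the other strand, and KAT2A shares 10.7% with AC099811.2 (GENCODE v29). The strand setting of the counting and its treatment of shared reads are not given in the sources used here, so the KAT5 and KAT2A counts are uncertain.

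**Figure D1:**
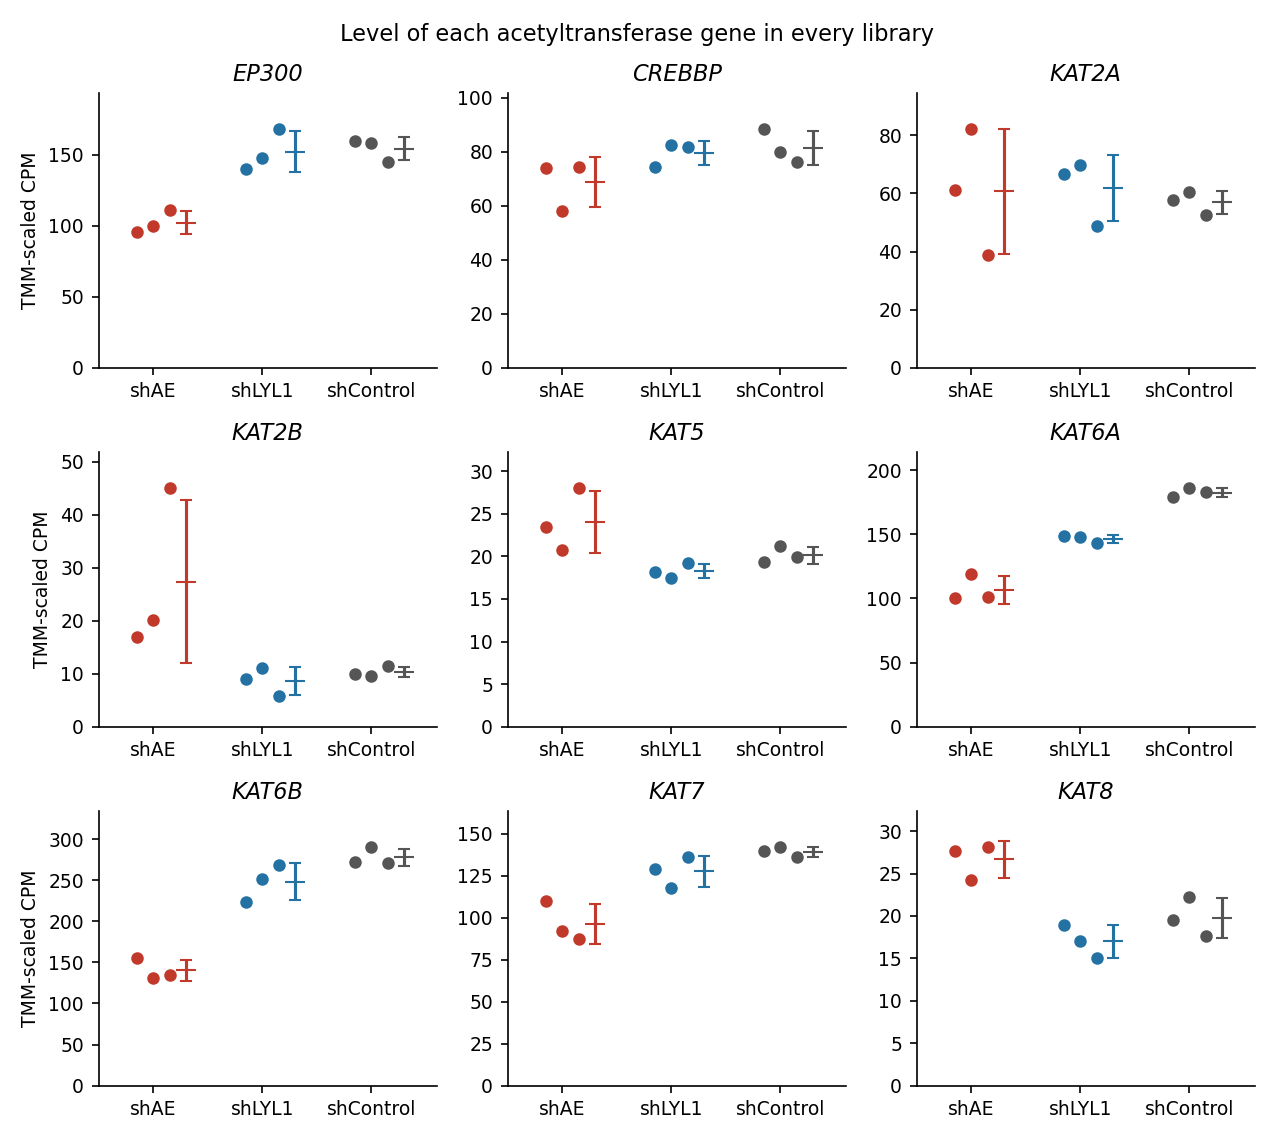
Level of each of the 9 genes (y axis, TMM-scaled CPM from 0) in the 3 shAE, 3 shLYL1 and 3 shControl libraries (points, in the order of their numbers), with the group mean and SD as bars. EP300, KAT6A, KAT6B and KAT7 lay lower in every shAE library than in any shControl library, and KAT2B at 17.0 to 45.0 CPM lay above its controls at 9.61 to 11.4 CPM. CREBBP also lay wholly below its controls and KAT8 wholly above, though neither was called, and 45.2% of all genes did not overlap in this comparison.

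In shAE against shControl cells, 4 of the 9 genes fell and 1 rose. KAT6B and KAT6A, the MORF and MOZ enzymes, fell 1.98-fold and 1.71-fold, EP300 1.51-fold and KAT7 1.44-fold, and KAT2B rose 2.64-fold. CREBBP, KAT2A, KAT5 and KAT8 did not pass the test. A gene was called at an adjusted p below 0.05 (edgeR quasi-likelihood test, Benjamini-Hochberg over all 14741 genes tested), and all 9 members passed the count filter. By that rule 5 of the 9 were called, beside 21.8% of all genes, with 4 lower beside 10.4% and 1 higher beside 11.4%. The shAE libraries lay wholly outside the control range for 7 members, beside 45.2% of all genes, with 2 above it beside 23.1% and 5 below it beside 22.2%. The median log2 fold change of the 9 was -0.24, against 0.05 over all genes. These are bulk libraries, in which fewer cells of a type and less RNA per cell cannot be told apart.

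KAT6B, the catalytic subunit of MORF, was at 155, 131 and 135 CPM in shAE libraries, against 272, 290 and 271 CPM in shControl libraries. Every shAE library was thus between 47.3% and 55.8% of the control mean, with no overlap between the groups. Its log2 fold change was -0.98 (SE 0.13, 95% interval -1.27 to -0.70, edgeR adjusted p = 0.0021). KAT6A, its paralog and a fusion partner in leukaemia, was at 100, 119 and 101 CPM in shAE libraries, against 179, 186 and 183 CPM in shControl libraries. The groups lay far apart, with a log2 fold change of -0.78 (SE 0.12, 95% interval -1.04 to -0.51, edgeR adjusted p = 0.00363). Both genes were called under all 22 alternative settings, at log2 fold changes of -1.07 to -0.76 for KAT6B and -0.86 to -0.54 for KAT6A.

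EP300, the p300 coactivator, was at 95.6, 99.9 and 111 CPM in shAE libraries, against 160, 158 and 145 CPM in shControl libraries. No shAE library reached the lowest control. The log2 fold change was -0.59 (SE 0.13, 95% interval -0.87 to -0.31, edgeR adjusted p = 0.0112), and the adjusted p was 0.0547 without shControl replicate 1 and 0.0563 without shControl replicate 2. CREBBP, its paralog, was at 73.8, 58.2 and 74.4 CPM in shAE libraries, against 88.3, 80.0 and 76.1 CPM in shControl libraries. The 3 shAE values lay just below the controls, but the log2 fold change of -0.24 had an interval of -0.54 to 0.06 and no call (edgeR adjusted p = 0.217).

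KAT7, which acetylates histones H3 and H4 at replication origins and genes, was at 110, 91.9 and 87.3 CPM in shAE libraries, against 140, 142 and 136 CPM in shControl libraries. All 3 lay below the controls, with a log2 fold change of -0.53 (SE 0.13, 95% interval -0.82 to -0.25, edgeR adjusted p = 0.0178). KAT7 was no longer called without shControl replicate 1, 2 or 3, at adjusted p = 0.069, 0.0753 and 0.0587. KAT8, which acetylates histone H4 at lysine 16, was at 27.7, 24.2 and 28.1 CPM in shAE libraries, against 19.5, 22.2 and 17.6 CPM in shControl libraries. The shAE values were the higher ones in every pairing, yet the log2 fold change of 0.43 (SE 0.15, 95% interval 0.09 to 0.77) was not called (edgeR adjusted p = 0.0672). It passed without shAE replicate 2 (0.50, adjusted p = 0.0457) and with upper-quartile scaling (0.48, adjusted p = 0.0458).

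KAT2B, the PCAF enzyme, was at 17.0, 20.1 and 45.0 CPM in shAE libraries, against 9.92, 9.61 and 11.4 CPM in shControl libraries. All shAE libraries were higher, but unevenly so, at 164%, 195% and 436% of the control mean for replicates 1, 2 and 3. The log2 fold change was 1.40 (SE 0.35, 95% interval 0.62 to 2.18, edgeR adjusted p = 0.0203). Without shAE replicate 3 it was 0.83 (adjusted p = 0.03), and without shControl replicate 1, 2 or 3 the call was lost (adjusted p = 0.0749, 0.0786 and 0.0629). Replicate 3 of shAE also had the lowest scaling factor (0.914, others 0.997 to 1.04) and the highest share of mitochondrial rRNA (1.21%, others 0.483% to 0.791%). The part of either in the KAT2B level was not tested. KAT2A, the GCN5 paralog, was at 61.2, 82.1 and 38.9 CPM in shAE libraries, against 57.9, 60.4 and 52.7 CPM in shControl libraries. Its shAE values lay on both sides of the controls, with a log2 fold change of 0.09 (SE 0.24, 95% interval -0.43 to 0.61, edgeR adjusted p = 0.802) that was -0.19 without shAE replicate 2. KAT5 was at 23.4, 20.7 and 28.0 CPM in shAE libraries, against 19.3, 21.2 and 19.9 CPM in shControl libraries, which overlapped (log2 fold change 0.25, 95% interval -0.08 to 0.58, edgeR adjusted p = 0.244).

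**Figure D2:**
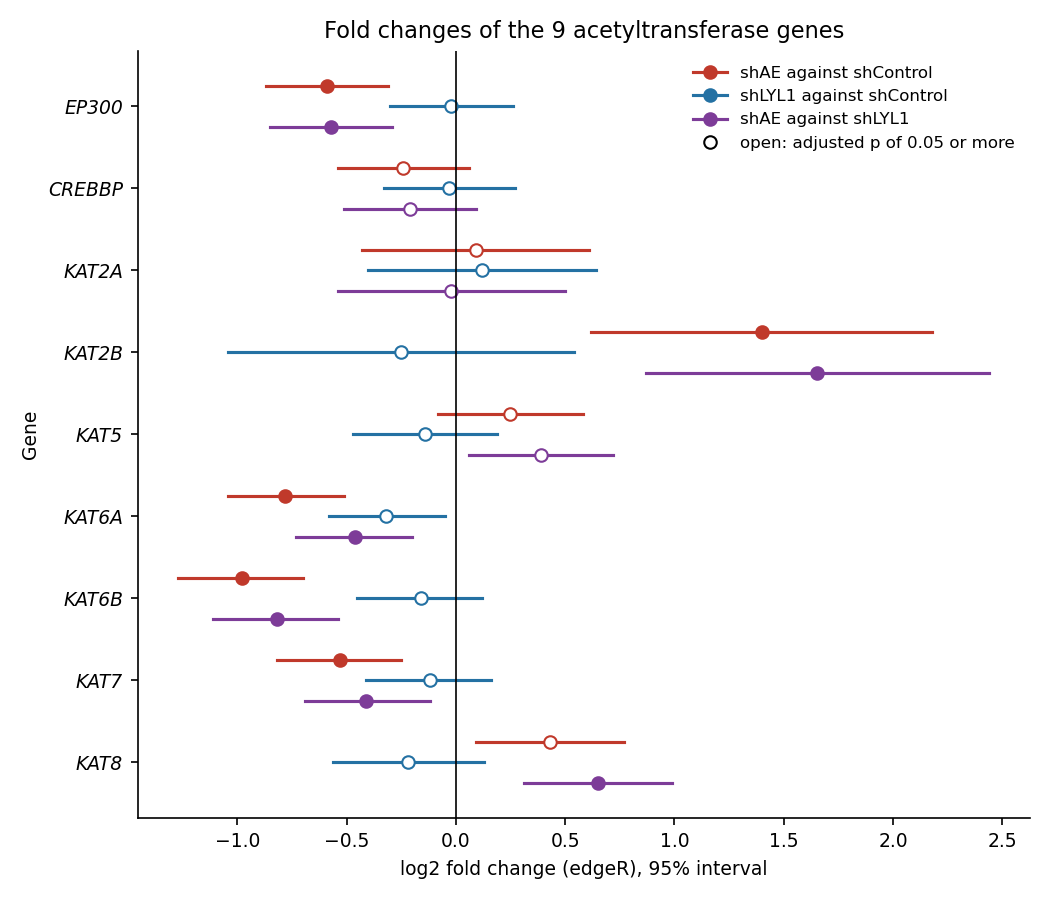
Log2 fold changes of the 9 genes (x axis, edgeR) for shAE against shControl, shLYL1 against shControl and shAE against shLYL1, with 95% intervals as lines, and open points for an adjusted p of 0.05 or more. The shAE points reach from -0.98 for KAT6B to 1.40 for KAT2B, while the shLYL1 points stay between -0.32 and 0.12 and are all open.

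Within each paralog pair the share of one gene was taken from CPM per kb in the same library, so its size depends on the transcript lengths used. KAT2B made up 15.1%, 13.6% and 42.7% of the KAT2A and KAT2B sum in shAE libraries, 7.90%, 9.31% and 7.10% in shLYL1 libraries and 9.93%, 9.28% and 12.2% in shControl libraries. All shAE shares lay above the controls, and replicate 3 held both the highest KAT2B and the lowest KAT2A level of the 9 libraries. EP300 made up 59.3%, 65.9% and 62.7% of its pair with CREBBP in shAE libraries, 68.0%, 66.9% and 69.8% in shLYL1 libraries and 67.1%, 69.0% and 68.2% in shControl libraries. Its shAE shares lay below the controls by a few percentage points. KAT6B made up 63.1%, 55.0% and 59.8% of its pair with KAT6A in shAE libraries, 62.5%, 65.3% and 67.6% in shLYL1 libraries and 62.8%, 63.3% and 62.1% in shControl libraries, and shAE and shControl overlapped. For shAE against shControl a two-sided exact permutation test of the log2 ratio, in which 3 libraries against 3 cannot go below p = 0.1, gave p = 0.1 for KAT2B over KAT2A, p = 0.1 for EP300 over CREBBP and p = 0.3 for KAT6B over KAT6A. Adjusted over the 9 comparisons of pairs and groups, these were 0.22, 0.22 and 0.34. With 3 libraries against 3 no pair could pass the threshold for calls, so the permutation test cannot decide whether the shares differ.

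**Figure D3:**
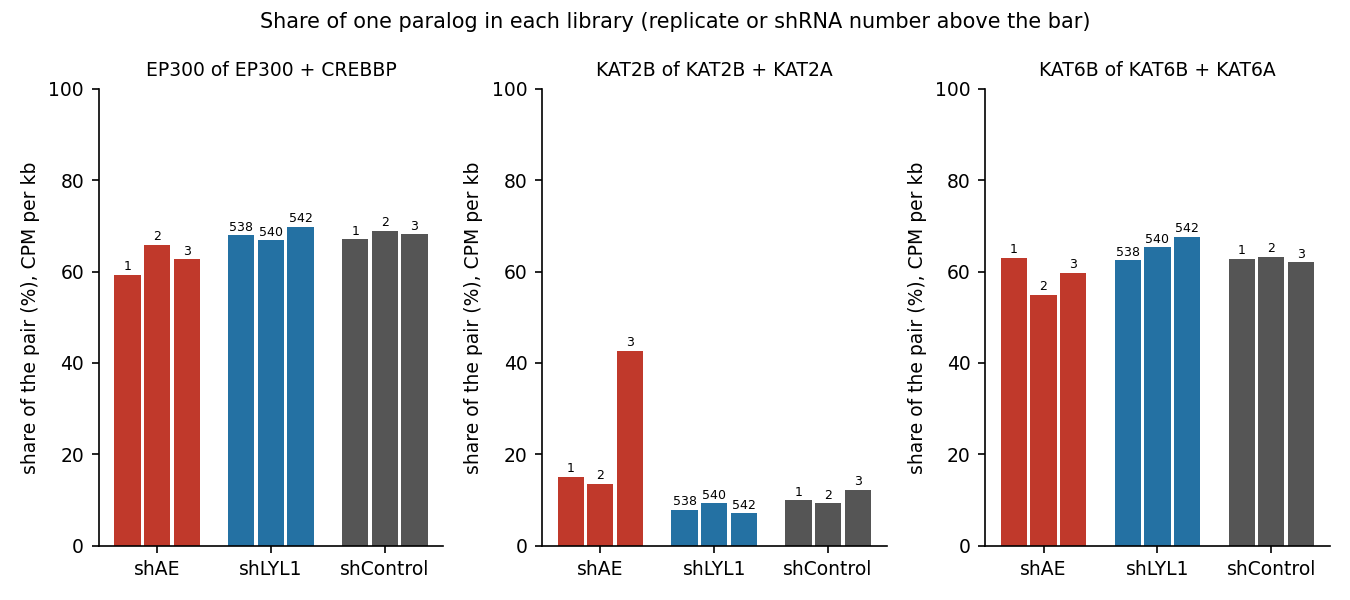
Share of EP300, KAT2B and KAT6B in the sum with their paralog (y axis, percent of CPM per kb, from 0) in each shAE, shLYL1 and shControl library, with the replicate or shRNA number above the bar. The KAT2B share of 42.7% in shAE replicate 3 stands above the 13.6% and 15.1% of the other shAE libraries.

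The members that fell have long transcripts and fold changes moved with length in these libraries. In shAE against shControl the median log2 fold change was 0.21 for 4930 genes with transcripts under 2 kb, 0.04 for 5101 genes of 2 to 4 kb and -0.18 for 624 genes of 8 to 12 kb, of which 20.4% were called lower. For 197 longer genes the median was -0.10, and 21.8% were called lower. EP300 (9.59 kb), KAT6A (9.25 kb), KAT6B (8.35 kb), KAT7 (9.64 kb) and CREBBP (10.8 kb) fall in the range of 8 to 12 kb, and KAT8 (1.79 kb) in that under 2 kb. With the length trend removed, KAT6B was at -0.76 (edgeR adjusted p = 0.00472), KAT6A at -0.54 (adjusted p = 0.0157) and KAT2B at 1.54 (adjusted p = 0.0178). The calls of EP300 (-0.36, adjusted p = 0.0687) and KAT7 (-0.30, adjusted p = 0.0989) were lost, and CREBBP was at -0.01 (adjusted p = 0.98). In shLYL1 against shControl the medians of the same ranges lay between -0.03 and 0.02.

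**Figure D4:**
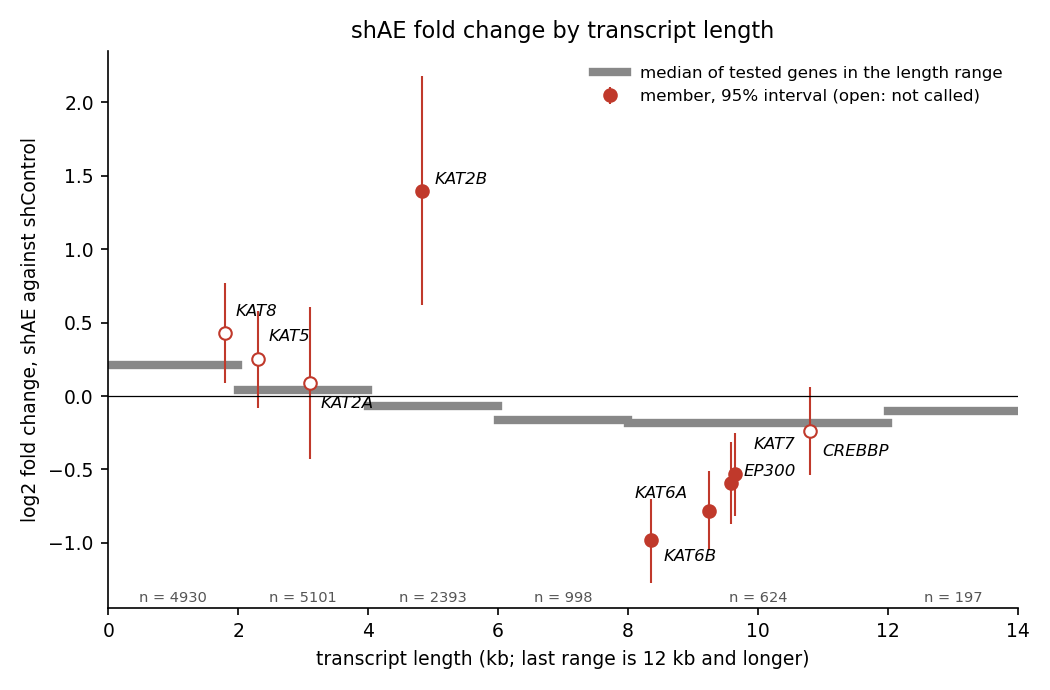
Log2 fold change in shAE against shControl (y axis) of the 9 genes by transcript length (x axis, kb), with 95% intervals and open points for genes not called, over the median of the tested genes in each length range (grey bars, n below). EP300, KAT6A, KAT6B and KAT7 lie below the median of -0.18 of their range, and KAT2B at 1.40 lies above the median of -0.07 of its range.

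In shLYL1 against shControl cells, 0 of the 9 members were called by edgeR, DESeq2 or limma-voom, beside 0.0136% of all genes in edgeR (2 genes, 0.00678% higher and 0.00678% lower). At an unadjusted p below 0.05 edgeR gave 1 of the 9 members, KAT6A, beside 711 of all 14741 genes. KAT6A was at 149, 148 and 143 CPM with shRNAs 538, 540 and 542, against 179, 186 and 183 CPM in shControl libraries. The 3 shLYL1 values were close together and all lower, with a log2 fold change of -0.32 (SE 0.12, 95% interval -0.58 to -0.05, unadjusted p = 0.0231, edgeR adjusted p = 0.957), and the adjusted p was 0.222 or more under every alternative. KAT6B was at 224, 251 and 269 CPM in shLYL1 libraries, against 272, 290 and 271 CPM in shControl libraries, and KAT5 at 18.2, 17.5 and 19.2 CPM, against 19.3, 21.2 and 19.9 CPM. These 3 members lay wholly below the controls, beside 8.17% of all genes, and 0 lay wholly above them, beside 8.41%, so that 3 in all did not overlap, beside 16.6%.

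EP300 was at 140, 148 and 168 CPM in shLYL1 libraries, around its controls at 160, 158 and 145 CPM (log2 fold change -0.02, 95% interval -0.30 to 0.26, edgeR adjusted p = 1). KAT2B was at 8.91, 11.1 and 5.79 CPM with shRNAs 538, 540 and 542, against 9.92, 9.61 and 11.4 CPM in shControl libraries. The libraries of shRNAs 538 and 542 lay below the control range of KAT2B and that of shRNA 540 within it, and the interval of -1.04 to 0.54 around its log2 fold change of -0.25 is wide. CREBBP, KAT2A, KAT7 and KAT8 had log2 fold changes of -0.03, 0.12, -0.12 and -0.22, and each overlapped its controls. A p that misses the threshold does not show equal levels, and the interval of KAT6A reaches -0.58.

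The contrast of shAE with shLYL1 tests whether the knockdowns differ, and in it 6 of the 9 members were called, beside 20.4% of all genes. The libraries did not overlap for 8 members, beside 35.5% of all genes, with 3 higher in shAE beside 18.2% and 5 lower beside 17.2%. KAT2B was higher in shAE cells, at 27.4 ± 15.4 CPM against 8.61 ± 2.69 CPM in shLYL1 cells (SD, n = 3 each, log2 difference 1.65, 95% interval 0.87 to 2.44, edgeR adjusted p = 0.0118). KAT8 was also higher, at 26.7 ± 2.15 CPM in shAE cells and 17.0 ± 1.93 CPM in shLYL1 cells (0.65, 95% interval 0.31 to 0.99, edgeR adjusted p = 0.0169). KAT8 lost this call without shRNA 542 (0.56, adjusted p = 0.0623). KAT6B averaged 140 ± 12.6 CPM in shAE cells and 248 ± 22.2 CPM in shLYL1 cells (-0.82, 95% interval -1.11 to -0.54, edgeR adjusted p = 0.00388), and EP300 averaged 102 ± 8.06 CPM in shAE cells and 152 ± 14.2 CPM in shLYL1 cells (-0.57, 95% interval -0.85 to -0.29, edgeR adjusted p = 0.0127). KAT6A (-0.46, edgeR adjusted p = 0.0235) and KAT7 (-0.41, adjusted p = 0.0471) were lower as well.
The KAT6A call was lost without shAE replicate 1 (adjusted p = 0.051), shRNA 538 (0.0606) or shRNA 540 (0.0574). The KAT7 call was kept only without shAE replicate 1 among the fits that leave out a library (adjusted p = 0.0259), with 0.0602 to 0.118 in the others. With the length trend removed, EP300 (-0.37, adjusted p = 0.0662), KAT6A (-0.26, adjusted p = 0.17) and KAT7 (-0.21, adjusted p = 0.246) were not called. In a fit of only the 6 libraries compared, without the shControl libraries in the estimate of spread, only KAT6B and KAT2B kept the call. KAT5 had a log2 difference of 0.39 (edgeR adjusted p = 0.088), and CREBBP (-0.21) and KAT2A (-0.02) were not called.

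The members differed in how they varied over the 9 libraries. Taking log2 CPM relative to the shControl mean, the closest pairs were EP300 with KAT7, at a root mean square difference of 0.158, KAT5 with KAT8 at 0.178 and KAT6A with KAT6B at 0.202. EP300 lay at 0.227 from its paralog CREBBP, and KAT2A at 0.968 from its paralog KAT2B. The farthest pair was KAT2B with KAT6B, at 1.39. By the same measure the genes with the most similar pattern to EP300 were ZNF516 (0.092), CCL28 (0.097) and TLK2 (0.101), against a median of 0.527 over all genes. For KAT2B they were C1RL (0.168), UNC93B1 (0.190) and CD47 (0.220), against a median of 0.925. KAT6A was nearest to STK24 (0.083), CKAP2L (0.090) and TOP2A (0.100), KAT6B to TTC28 (0.092), SSBP3 (0.108) and MAML3 (0.110), KAT7 to TRIO (0.053), IRF2BP1 (0.069) and RBM8A (0.072), and KAT8 to DCTD (0.087), DDX28 (0.098) and ANAPC2 (0.100).

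The genes whose products work with these enzymes were read as 8 lists, in which 115 different genes were tested. In shAE against shControl 25 of the 115 were called, 21.7%, beside 21.8% of all genes, so the lists as a whole matched the background. In shAE against shControl the acetyl-lysine readers, proteins whose bromodomains or related folds bind the mark, held the most calls. Of 21 tested readers 10 were lower and 0 higher, beside 10.4% lower and 11.4% higher over all genes, and their median log2 fold change was -0.52, against 0.05 over all genes. TRIM24, a bromodomain cofactor of nuclear receptors, was at 203, 253 and 150 CPM in shAE libraries, against 432, 438 and 423 CPM in shControl libraries, with no overlap (-1.09, SE 0.20, edgeR adjusted p = 0.00613). BRD7, a subunit of a SWI/SNF complex, fell by 0.71 (SE 0.14, edgeR adjusted p = 0.00776). The count of lower readers was 4, 5 and 5 without shControl replicate 1, 2 and 3, and 5 with the length trend removed.

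Of 24 tested SAGA and ATAC subunits, the partners of KAT2A and KAT2B, 2 were higher and 2 lower in shAE cells, 16.7% called beside 21.8% of all genes, with a median of 0.07. TADA2B, the adaptor subunit of SAGA, rose 1.71-fold (0.78, SE 0.24, edgeR adjusted p = 0.0382), TAF9B fell by 0.61 (adjusted p = 0.0197) and YEATS2, the reader subunit of ATAC, by 0.45 (adjusted p = 0.0381). Of 16 NuA4 subunits, partners of KAT5, 2 were lower, 12.5% beside 10.4% of all genes, the ATPase EP400 (-0.63, adjusted p = 0.0213) and the scaffold TRRAP (-0.57, adjusted p = 0.0322). Of 9 BRPF, JADE and ING genes, partners of KAT6A, KAT6B and KAT7, 1 was higher and 3 lower, 44.4% called beside 21.8% of all genes. ING4, the methyl-lysine reader of KAT7 complexes, was at 34.6, 26.6 and 55.8 CPM in shAE libraries, against 18.4, 17.8 and 14.7 CPM in shControl libraries, all higher (1.20, SE 0.27, edgeR adjusted p = 0.0125). JADE3 (-0.92, adjusted p = 0.0231) and BRD1, a BRPF scaffold (-0.47, adjusted p = 0.0311), were among those lower.
Of 11 MSL and NSL subunits, partners of KAT8, 1 was lower, 9.09% beside 10.4% of all genes, HCFC1 (-0.87, edgeR adjusted p = 0.0178). Of 10 tested partners and inhibitors of EP300 and CREBBP 2 were called, beside 21.8% of all genes. CITED4, which binds both, rose (0.94, adjusted p = 0.0219) and ANP32A, part of an inhibitor of histone acetylation, fell by 0.53 (adjusted p = 0.0188). Of 12 other acetyltransferases 1 was lower, 8.33% beside 10.4% of all genes, NAA50, known mainly as an N-terminal acetyltransferase (-0.59, adjusted p = 0.043). Of 12 genes of acetyl-CoA supply 1 was lower, 8.33% beside 10.4% of all genes, ACLY, which makes acetyl-CoA from citrate (-0.85, adjusted p = 0.0143). Without shControl replicate 1, 2 or 3, none of the genes in these 7 lists was called by edgeR, apart from 1 BRPF, JADE or ING gene called higher without replicate 1.

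In shLYL1 against shControl none of the 115 genes was called by edgeR, DESeq2 or limma-voom, beside 2, 34 and 2 of all 14741 genes. At an unadjusted p below 0.05 these tools gave 3, 3 and 2 of the 115, beside 711, 704 and 668 of all 14741 genes. The reader median was -0.06. In shAE against shLYL1 edgeR called 20 of the 115 genes, 17.4%, beside 20.4% of all genes. Of the 21 readers 8 were lower, beside 9.70% of all genes, and 0 higher, beside 10.7%, with TRIM24 at -1.26 (edgeR adjusted p = 0.00387) and BAZ2A at -0.74 (adjusted p = 0.00388). SET, the other part of the acetylation inhibitor, differed by -1.16 (adjusted p = 0.00747) in that contrast. TADA2B differed by 1.16 (adjusted p = 0.00977), TAF9B by -0.98 (adjusted p = 0.00388) and ING4 by 0.95 (adjusted p = 0.0289). Their lists lay below the share of all genes, with 2 of 24 SAGA and ATAC subunits called (8.33%) and 1 of 9 BRPF, JADE and ING genes (11.1%).

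**Figure D5:**
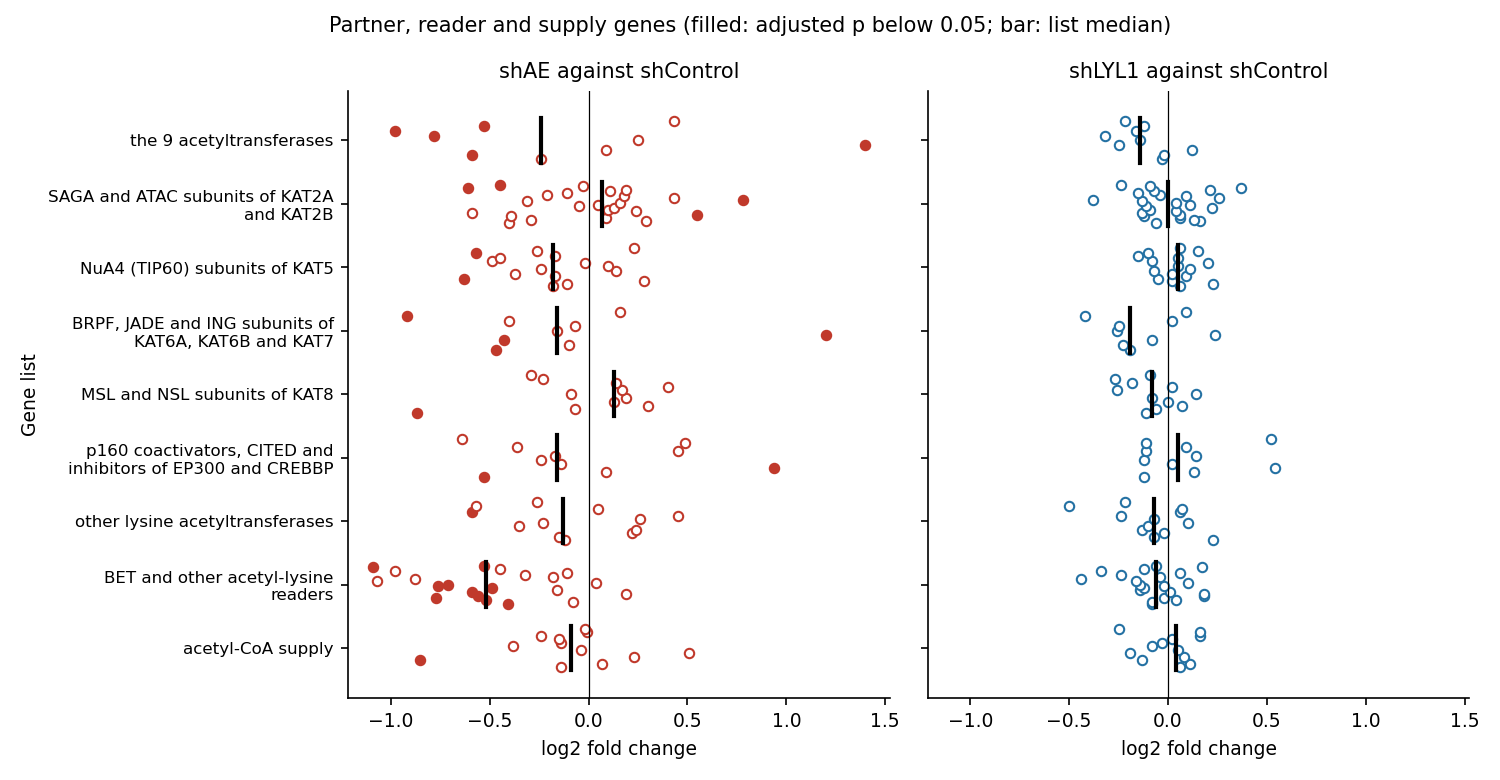
Log2 fold changes (x axis) of the 9 acetyltransferases and of the tested genes in 8 partner, reader and supply lists (rows of points) for shAE against shControl on the left and shLYL1 against shControl on the right, with filled points for an adjusted p below 0.05 and black bars for list medians. The readers have 10 filled points, all below 0, and a median of -0.52 in shAE cells, and no point is filled for shLYL1.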

How the data were processed

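The deposited files hold raw read counts per gene symbol, whole numbers that the authors did not normalise, 1 file for each of 9 libraries. The build was hg19, and the tools named were featureCounts 2.0.1, SAMtools 1.7, HISAT2 2.2.0, DESeq2 1.26.0 and fastp 0.20.1, per the submitters' processing notes, which give them no role. The annotation, the strand setting and the treatment of multi-mapped reads are not given in the sources used here. A suffix was stripped from 5 gene names in 6 files.

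Counts were tested in edgeR 4.0.16 (R 4.3.3) by a robust quasi-likelihood F test, with TMM factors, filterByExpr by group and a model of group means over all 9 libraries. Standard errors are the log2 fold change over the square root of F. Levels per length divide CPM by the length of the GENCODE v29 transcript with the longest coding part, since no hg19 annotation was used, and 96.6% of the tested genes had one. The length trend was a loess curve per library. Promoter windows are from RefSeq (GRCh38.p14), matched by symbol. Paralog ratios, planned as a description, were also compared by exact permutation. The code was tested on simulated data.

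All members, the knockdown targets, up to 3 genes with the smallest adjusted p per list, and the 3 nearest genes of each called member are named. Members and lists were chosen with earlier results of these data known. The list gene ZZZ3 was not analysed here. One gene that this rule names is not reported here. Alternatives were other scalings, count filters, DESeq2 1.42.0, limma-voom (limma 3.58.1), the legacy test, fits of 6 libraries, a threshold of 0.01, the length trend removed, leaving out each library in turn, and a replicate block.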

Additional observations from a re-analysis of the deposited data

Results flagged for a closer look

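The effects of the knockdowns, each against the shared shControl libraries, differed for 6 members by the contrast of shAE with shLYL1 in edgeR. That contrast called 20.4% of all genes, and in a fit of only the 6 libraries compared only KAT6B and KAT2B kept the call. The log2 differences were -0.57 for EP300, 1.65 for KAT2B, -0.46 for KAT6A, -0.82 for KAT6B, -0.41 for KAT7 and 0.65 for KAT8. For KAT2B and KAT8 all 3 shAE libraries lay above all 3 shLYL1 libraries, and for EP300, KAT6A, KAT6B and KAT7 all 3 lay below. The libraries did not overlap for KAT5 (above) and CREBBP (below) either, which were not called, nor for 35.5% of all genes. No test for a single library far from the others was run in these groups of 3.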

How the results depend on the processing

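In shAE against shControl the 5 called members became 2 at an adjusted p below 0.01, 3 with the length trend removed and 3 with a replicate block, and 2 to 6 when 1 library was left out. All genes called, 3214, became 813 at an adjusted p below 0.01, 1629 with the block, and 954 to 4267 when 1 library was left out. The labels do not say whether the replicate numbers of shAE and shControl pair the samples. Deviations from the group means had correlations of 0.03, -0.01 and 0 for the same number, which shows no shared deviation but cannot show that the samples were unpaired. In the fit with the block EP300 (-0.61, edgeR adjusted p = 0.0501) and KAT7 (-0.55, adjusted p = 0.0574) were not called. In shLYL1 against shControl 0 members were called under every setting. All genes called there, 2, became 5 by library size only, 8 without a count filter, 1 with a strict filter, 34 in DESeq2, 25 in limma-voom with a spread per group, 15 in a fit of 6 libraries, 1 at an adjusted p below 0.01 and 1 to 11 when 1 library was left out. In shAE against shLYL1 the 6 called members became 2 in a fit of 6 libraries, 1 at an adjusted p below 0.01, 3 with the length trend removed and 4 to 6 when 1 library was left out. All genes called there, 3003, became 1685 in limma-voom with a spread per group, 941 in a fit of 6 libraries, 784 at an adjusted p below 0.01 and 1467 to 4007 when 1 library was left out. The log2 fold changes that changed sign were those of members that were not called. When 1 library was left out, KAT2A ranged from -0.19 to 0.32 in shAE against shControl and from -0.30 to 0.20 in shAE against shLYL1, and EP300 from -0.09 to 0.04 and CREBBP from -0.08 to 0.03 in shLYL1 against shControl. With the length trend removed EP300 was at 0.01 in shLYL1 against shControl and CREBBP at 0 in shAE against shLYL1, and with upper-quartile scaling KAT2A was at 0 in shAE against shLYL1. Over all settings 517 log2 fold changes of members kept direction and call, 45 lost the call, 3 gained it and 11 changed sign, and the causes were not tested beyond what each setting alters.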
